A study of Homo sapiens with 24 samples.

Results

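The RNA interference constructs shPAX8-1 and shPAX8-2 were compared with each other in 786-M1A and in OS-LM1 cells, and each gene was asked whether the difference between the constructs was the same in both lines. The comparison used the 16 shPAX8 RNA-seq libraries of the 24 libraries of the series, chosen by construct label and not by any measured value. Both lines are metastatic derivatives of clear cell renal cell carcinoma (ccRCC) lines, 786-M1A of 786-O and OS-LM1 of OS-RC2, and both parental lines have lost the VHL tumour suppressor. The 4 groups were 786-M1A with shPAX8-1, 786-M1A with shPAX8-2, OS-LM1 with shPAX8-1 and OS-LM1 with shPAX8-2, with 4 libraries in each. All 16 libraries therefore came from cells carrying a hairpin against PAX8, grown in RPMI with fetal bovine serum. Per the methods, the hairpin plasmids are doxycycline-inducible and the cells also carry a luciferase transgene. How long doxycycline was given before RNA extraction is not given in the sources used here. The 8 libraries labelled sgNTC18 were not analysed here, so no value below is a degree of PAX8 depletion. Each genetic background is represented by 1 derived line, and line and background cannot be told apart.

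PAX8 is a paired-box transcription factor that specifies kidney and thyroid lineages during development and stays on in renal epithelium and in most ccRCC. A short hairpin RNA is cut into a guide strand that leads an Argonaute protein to complementary transcripts. Bases 2 to 8 of the guide, called the seed, can by themselves pair with the 3′ untranslated regions of other transcripts, so hairpins against a common target can differ in the other transcripts that they reach. In the tests below, the construct difference is the log2 level with shPAX8-1 minus the log2 level with shPAX8-2 within a line. The interaction is that difference in OS-LM1 minus that in 786-M1A, so a value above 0 means that the gene was relatively higher with shPAX8-1 in OS-LM1.

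The guides are shown because all results compare them. Capitals mark the seed in the guide and the bases that pair with it in the target, and all lines run 5′ to 3′.
shPAX8-1 guide: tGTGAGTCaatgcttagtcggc
shPAX8-1 target: gccgactaagcattGACTCACa
shPAX8-2 guide: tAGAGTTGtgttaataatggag
shPAX8-2 target: ctccattattaacaCAACTCTa
The shPAX8-1 target lies at chr2:113241690-113241711 on hg38, in the coding sequence in exon 7 of PAX8, a gene on the minus strand, and is present in 9 of 10 coding transcripts of the GENCODE annotation. The shPAX8-2 target lies at chr2:113218122-113218143, in the 3′ untranslated region in exon 12, and is present in 7 of those 10 transcripts. The guides have 11 and 7 G or C bases of 22. The seeds differ, with GTGAGTC in one guide and AGAGTTG in the other.

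The libraries held 11634419 to 52059375 expected counts. All replicate pairs differed by more than counting error. The labels do not say whether replicates are separate cultures, so p-values measure the spread between these libraries, which may be technical. In 786-M1A with shPAX8-1 the libraries fell into pairs. Replicates 1 and 2 differed from replicates 3 and 4 by a chi-square per gene of 43.6 to 75.5, against 13.9 and 3.64 within the pairs. A weaker split by the same numbers was present in 786-M1A with shPAX8-2, at 14.5 to 18.7 across and 3.90 and 11.2 within. The highest values elsewhere were 90.8 between replicates 3 and 4 and 59.7 between replicates 2 and 3 of OS-LM1 with shPAX8-2. The mean GC content of the counted transcripts was 49.38% and 48.90% in replicates 1 and 2 and 47.39% and 47.31% in replicates 3 and 4, while the 4 libraries of 786-M1A with shPAX8-2 held 49.20% to 50.23%. Results are therefore also given with replicates 1 and 2, or 3 and 4, of 786-M1A shPAX8-1 alone where this moves a count by over 1.5 times or ends a call. Those fits kept all 4 libraries of 786-M1A with shPAX8-2, so they set part of one group against the whole of the other. RNA18S5, a ribosomal RNA gene, took 2.49% to 6.53% of counts in the OS-LM1 libraries, where it was the top gene in all 8. Among cell type markers, VIM was the highest renal and ccRCC marker in each group, CD3E was at 0 in all 16 libraries, and the summed endothelial markers stayed between 0.490 and 3.06 CPM, the unit of level used here, which scales a count to the normalized size of its library. The fibroblast list was carried by PDGFRB in 786-M1A, where the summed list ranged from 203 to 425 CPM with shPAX8-1 and from 672 to 893 CPM with shPAX8-2. The immune list was carried by CD68. PTPRC, the pan-leukocyte marker, averaged at most 0.237 CPM in any group. The part of other cells in the results was not tested.

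PAX8 itself differed between the constructs in 786-M1A. Its level there was 23.0, 21.9, 15.1 and 14.8 CPM with shPAX8-1 and 41.4, 45.6, 42.7 and 40.0 CPM with shPAX8-2, and the groups did not overlap. In OS-LM1 it was 85.3, 78.0, 59.5 and 88.8 CPM with shPAX8-1 and 76.3, 63.3, 96.5 and 79.6 CPM with shPAX8-2, and the groups overlapped. The construct difference was -1.18 ± 0.16 (log2, SE, n = 4 against 4) in 786-M1A and -0.02 ± 0.16 in OS-LM1. The interaction was 1.16 ± 0.23, with an adjusted p of 0.0015 by edgeR's quasi-likelihood test with Benjamini-Hochberg adjustment, which is the test behind every adjusted p below. It was 0.90 with 786-M1A shPAX8-1 replicates 1 and 2 alone and 1.5 with replicates 3 and 4 alone. PAX8 overlaps the antisense gene PAX8-AS1. The labels name a strand-marking kit but not whether the counting used strand, so reads of the overlap cannot be told apart.

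**Figure D1:**
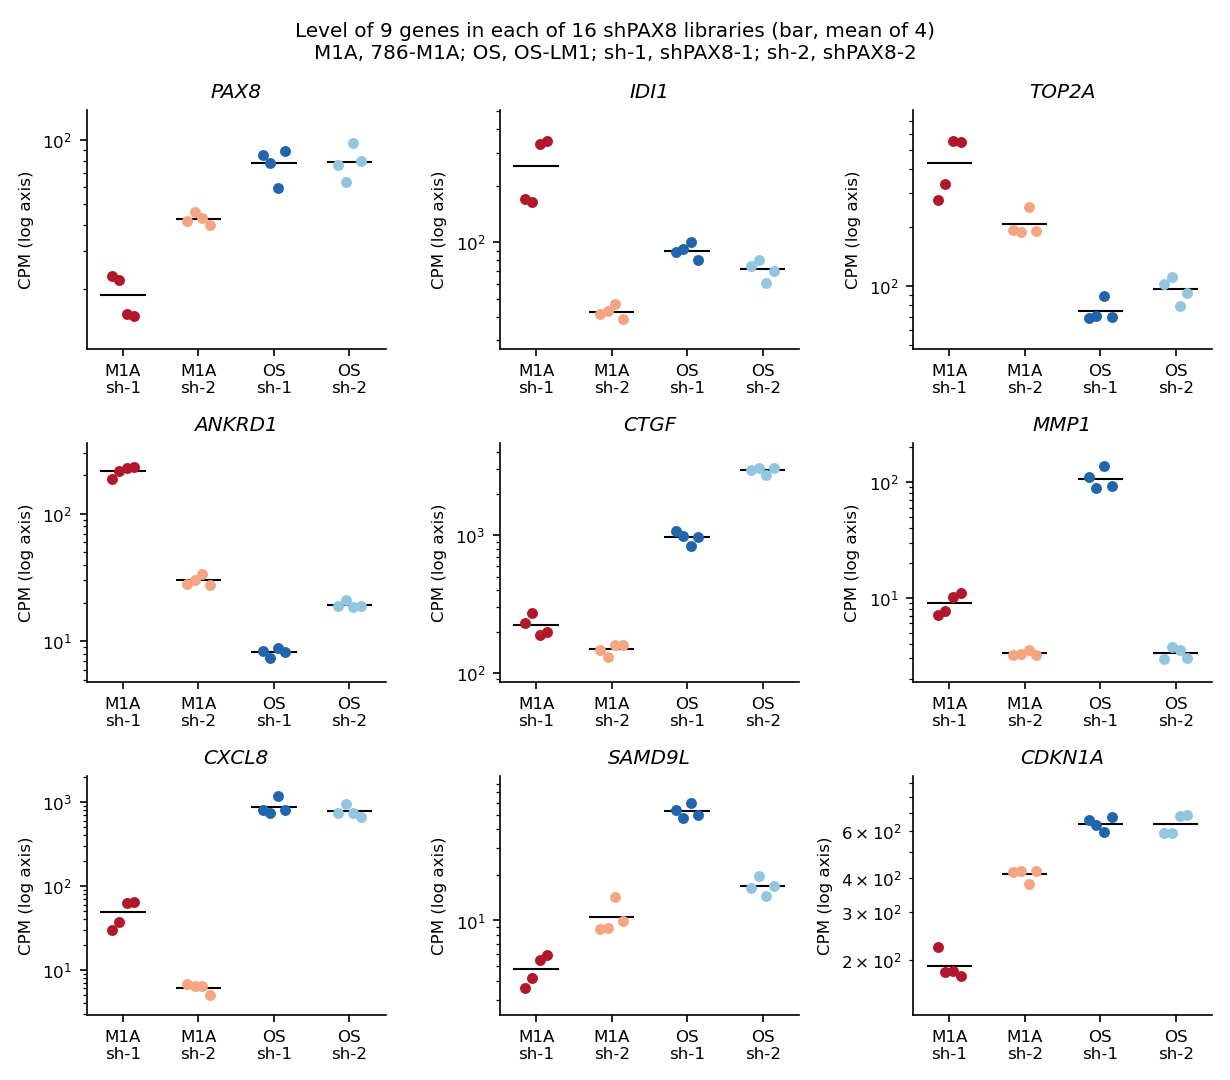
Level in CPM (log axis) of 9 genes in each of the 16 shPAX8 libraries, with points for libraries and a bar for the mean of 4. PAX8 and IDI1 were separated by construct in 786-M1A and overlapped in OS-LM1, whereas ANKRD1, CTGF and SAMD9L were separated in opposite directions in the lines.

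The genes that the study names with its PAX8 transcriptomes gave 3 interactions among 9, and 5 without 786-M1A shPAX8-1 replicate 1 or with replicates 3 and 4 of that group alone. MYC, the oncogenic transcription factor, was at 220, 189, 246 and 243 CPM with shPAX8-1 and 148, 157, 148 and 145 CPM with shPAX8-2 in 786-M1A. In OS-LM1 it was at 201, 163, 140 and 194 CPM with shPAX8-1 and 176, 218, 177 and 221 CPM with shPAX8-2. The groups were apart in 786-M1A and overlapped in OS-LM1, and the interaction was -0.77 ± 0.17 (adjusted p = 0.0041), a direction opposite to that of PAX8. EPAS1, which encodes HIF2A, averaged 311 ± 43.8 (SD, n = 4) and 530 ± 95.4 CPM in 786-M1A and 184 ± 7.48 and 221 ± 23.0 CPM in OS-LM1, in each line with shPAX8-1 first. Its interaction of 0.51 ± 0.18 had an adjusted p of 0.0437 and was past the test in 4 of the 16 fits that left out 1 library. It was 0.32 with each library's GC trend removed (adjusted p = 0.0706) and 0.41 with 786-M1A shPAX8-1 replicates 1 and 2 alone (adjusted p = 0.163). CCND1, the G1 cyclin, had the same interaction of 0.51 ± 0.18 but an adjusted p of 0.0528. CCND1 passed with DESeq2 (adjusted p = 0.0384), with the replicate block (0.0242), with replicates 3 and 4 of 786-M1A shPAX8-1 alone (0.0078) and in 5 of the 16 fits without 1 library. It was lower with shPAX8-1 in both lines (-1.08 and -0.58). MYEOV, a neighbour of CCND1 on chromosome 11, had 0.44 (adjusted p = 0.135), and 0.62 with those replicates 3 and 4 alone (adjusted p = 0.0171). HIF1A (0.07), its partner ARNT (-0.01) and VHL (0.27) did not pass the interaction test, with adjusted p of 0.842, 0.974 and 0.211. HIF1A passed with the GC trend removed (0.42, adjusted p = 0.0106).

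Over all genes, 3453 of 15101 tested (22.9%) passed the interaction test. Of these, 1637 (10.8% of genes tested) were above 0 and 1816 (12.0%) below 0. For the gene lists below, counts above and below 0 hold only members past this test, and medians are over all tested members. Within lines, 6851 genes (45.4%) differed between the constructs in 786-M1A, with 3564 (23.6%) higher and 3287 (21.8%) lower with shPAX8-1. In OS-LM1 2961 genes (19.6%) differed, with 1505 (9.97%) higher and 1456 (9.64%) lower. With replicates 1 and 2 of 786-M1A shPAX8-1 alone the interaction count was 2067, and with replicates 3 and 4 alone it was 6429. The first of these held 1857 of the 3453 genes and the second 3267, and none of the 3453 changed sign in either.

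Most interactions were differences past the test in 786-M1A alone. These were 2191 of the 3453 genes (63.5%), and a further 595 (17.2%) passed the test in OS-LM1 alone. A construct difference past the test in both lines with opposite signs was found for 316 genes, of which 181 were higher with shPAX8-1 in 786-M1A and lower in OS-LM1 and 135 were the reverse. Another 186 genes differed in the same direction in both lines by unequal amounts, 130 of them more in 786-M1A and 56 more in OS-LM1, and 165 passed neither test within a line. The interaction exceeded 1 in size on the log2 scale for 1371 genes, 831 above 0 and 540 below 0 among those called, and the median over all genes was 0.02.

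**Figure D2:**
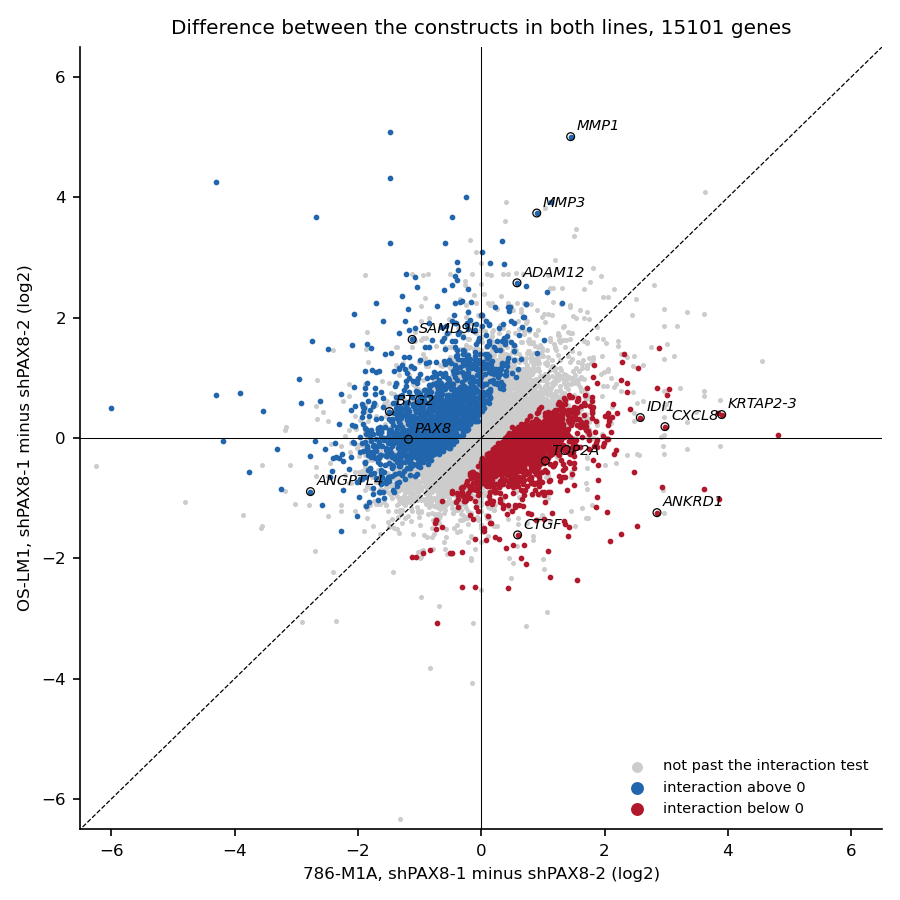
Construct difference (log2, shPAX8-1 minus shPAX8-2) of 15101 genes in 786-M1A on the horizontal axis and in OS-LM1 on the vertical axis, with genes past the interaction test in blue (above 0) or red (below 0). The dashed line marks equal differences, and 9 genes lie outside the plotted range. PAX8 and IDI1 lie near the horizontal axis on opposite sides, and ANKRD1 and CTGF lie at the lower right.

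Genes of cholesterol synthesis and uptake differed between the constructs mainly in 786-M1A. These genes encode the mevalonate and sterol enzymes and proteins of sterol uptake, and they are usually induced together by SREBP2 when sterols are low. Of 24 tested, 18 (75%, against 12.0% of all genes) passed the interaction test below 0 and none passed above. In 786-M1A 20 were higher with shPAX8-1 and none lower, and in OS-LM1 4 were higher and 1 lower. The median construct difference was 1.42 in 786-M1A and 0.21 in OS-LM1, and the median interaction was -1.14. The list held 17 to 22 calls in each of the 25 alternative analyses.

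IDI1, the isopentenyl diphosphate isomerase, showed the largest interaction of the cholesterol list. It was at 171, 163, 335 and 349 CPM with shPAX8-1 in 786-M1A, where replicates 3 and 4 stood above replicates 1 and 2, and at 41.6, 43.0, 46.8 and 38.9 CPM with shPAX8-2. In OS-LM1 it averaged 90.2 ± 8.21 and 71.5 ± 8.63 CPM. The 786-M1A groups were far apart and the OS-LM1 groups overlapped, and the interaction was -2.24 ± 0.28 (adjusted p = 2.9e-05), or -1.64 with replicates 1 and 2 alone and -2.65 with replicates 3 and 4 alone. CYP51A1, the lanosterol demethylase, had an interaction of -1.90 ± 0.20 (adjusted p = 5.5e-06). The 4 genes FDFT1, INSIG1, STARD4 and ACAT2 were higher with shPAX8-1 in both lines. SREBF2, which encodes SREBP2 itself, did not differ past the test in either line (0.03 and -0.22). MVK and MVD differed in 786-M1A, and their interactions of -0.68 and -0.71 did not pass the test.

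Fatty acid and lipid droplet genes divided. Of 22 tested, 8 had an interaction below 0 and 3 above, with a median of -0.12. With replicates 3 and 4 of 786-M1A shPAX8-1 alone the count was 18, with 9 each way. SCD, the stearoyl-CoA desaturase, was at 2282, 1705, 2102 and 2027 CPM with shPAX8-1 and 928, 873, 745 and 790 CPM with shPAX8-2 in 786-M1A, against means of 273 ± 21.4 and 289 ± 10.8 CPM in OS-LM1. The groups were apart in 786-M1A, and the interaction was -1.36 ± 0.14 (adjusted p = 5.1e-06). ACSL3, an acyl-CoA synthetase of lipid droplets, had -1.30 (adjusted p = 4.8e-04), and FASN, the fatty acid synthase, had -1.12 (adjusted p = 0.007). The 3 members above 0 were CD36, a fatty acid translocase (1.67), and the lipid droplet coat genes PLIN2 (0.93) and PLIN3 (0.69). LIPG, the endothelial lipase, which was in no list, was 8.38-fold higher with shPAX8-1 in 786-M1A and 1.76-fold higher in OS-LM1, with an interaction of -2.24 ± 0.25 (adjusted p = 9.5e-06).

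**Figure D3:**
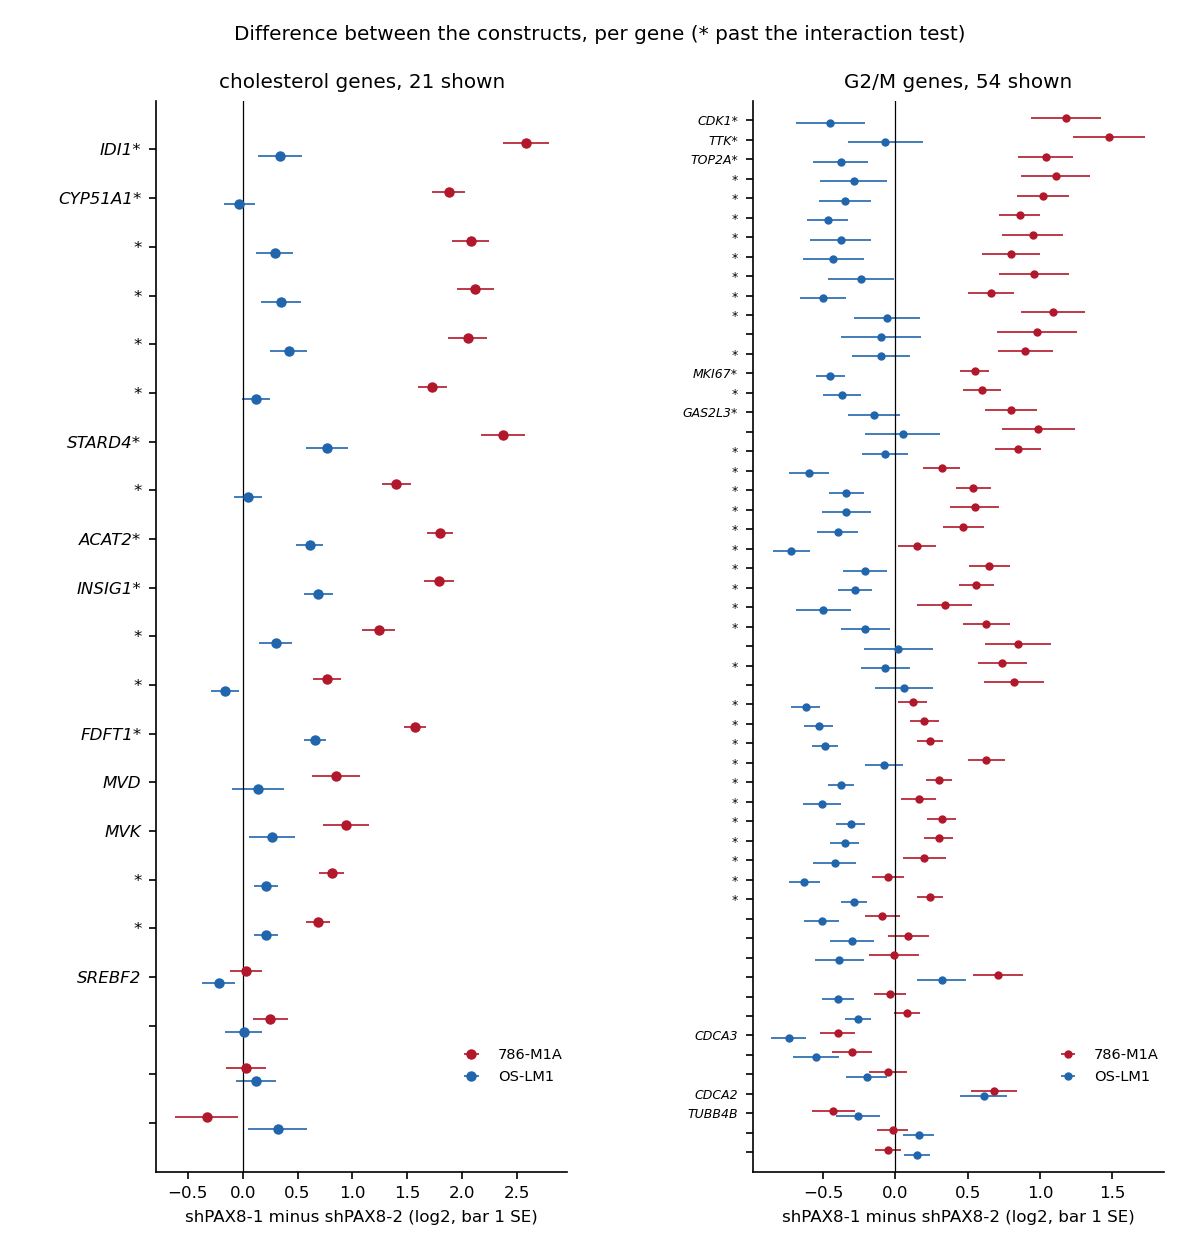
Construct difference (log2, shPAX8-1 minus shPAX8-2, bar 1 SE) in 786-M1A (red) and OS-LM1 (blue) for 21 cholesterol and 54 G2/M genes, 1 gene at each height, with an asterisk for genes past the interaction test and names for genes described in the text. The cholesterol genes shown are spread from -0.33 to 2.58 in 786-M1A and from -0.22 to 0.77 in OS-LM1.

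Stress genes also lay mostly below 0. Of 38 ATF4 targets and tRNA synthetases, which serve amino acid supply, 15 were below 0 and 2 above, and 22 were higher with shPAX8-1 in 786-M1A. The count was 7 with replicates 1 and 2 of 786-M1A shPAX8-1 alone and 26 after removal of each library's GC trend. SLC7A11, the cystine transporter, was at 55.4, 40.8, 85.1 and 83.8 CPM with shPAX8-1 and 18.7, 16.3, 16.4 and 14.5 CPM with shPAX8-2 in 786-M1A. In OS-LM1 it averaged 98.0 ± 9.62 and 75.9 ± 15.7 CPM. The 786-M1A groups did not overlap and the OS-LM1 groups did, with an interaction of -1.63 ± 0.28 (adjusted p = 4.7e-04). XPOT, the tRNA exportin, had -0.95 (adjusted p = 0.0033). The members above 0 were DDIT4 (0.73) and CHAC1, a glutathione-degrading enzyme and ATF4 target, at 1.70 ± 0.35 (adjusted p = 0.0023), with 7.77 against 2.39 CPM in OS-LM1 and 7.63 against 7.76 CPM in 786-M1A.

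Of 22 genes for chaperones of the endoplasmic reticulum and the unfolded protein response, 9 were below 0 and none above, and 16 were higher with shPAX8-1 in 786-M1A. The count was 5 without 786-M1A shPAX8-1 replicate 3, 4 with replicates 1 and 2 of that group alone, 14 with replicates 3 and 4 alone, and 15 with the GC trend removed. HSPA5, the chaperone BiP, was at 1870, 1659, 2598 and 2629 CPM with shPAX8-1 and 1196, 1150, 1233 and 1201 CPM with shPAX8-2 in 786-M1A. Replicates 3 and 4 again stood above replicates 1 and 2, and all 4 stood above shPAX8-2. In OS-LM1 it averaged 688 ± 103 and 689 ± 14.9 CPM, and the interaction was -0.88 ± 0.19 (adjusted p = 0.0029). MANF, a secreted stress protein, had -1.10 (adjusted p = 1.9e-04). DNAJB9, a co-chaperone, had -0.99 (adjusted p = 0.0249) and lost its call in 4 of the 16 fits without 1 library, with adjusted p up to 0.0594, and with replicates 1 and 2 alone (-0.40, adjusted p = 0.24). Among 23 NRF2 targets of the antioxidant response, 8 were below 0 and 2 above, led by SLC7A11 and by the aldo-keto reductases AKR1C1 (-1.48, adjusted p = 7.7e-04) and AKR1C3 (-1.41, adjusted p = 0.0011). Those reductases belong to a family of genes with similar sequences, and their counts are uncertain for that reason. Of the members above 0, the transporter ABCC3 had 1.39.

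Genes of mitosis passed the interaction test below 0 and none passed above. The G2/M list comes from the Seurat package. Of its 54 genes tested, 37 (68.5%, against 12.0% of all genes) passed below 0, with a median of -0.83 and 28 to 45 calls over the 25 alternatives. In 786-M1A 35 were higher and 2 (TUBB4B, -0.43, and CDCA3, -0.40) lower with shPAX8-1, with a median of 0.55, and in OS-LM1 1 (CDCA2, 0.61) was higher and 20 lower, with a median of -0.34. A construct difference past both tests with opposite signs was found for 10 of them, all higher in 786-M1A and lower in OS-LM1.

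TOP2A, the DNA topoisomerase of dividing cells, was at 278, 334, 551 and 546 CPM with shPAX8-1 and 195, 189, 255 and 193 CPM with shPAX8-2 in 786-M1A. In OS-LM1 TOP2A was at 68.8, 70.6, 88.9 and 69.4 CPM with shPAX8-1 and 103, 111, 79.6 and 92.7 CPM with shPAX8-2. The 786-M1A groups were apart and the OS-LM1 groups overlapped in 1 library of each, with an interaction of -1.42 ± 0.26 (adjusted p = 0.001). CDK1, the mitotic kinase, was at 36.8, 46.0, 85.7 and 90.4 CPM with shPAX8-1 and 24.2, 23.9, 34.1 and 32.1 CPM with shPAX8-2 in 786-M1A. Its interaction was -1.63 ± 0.34 (adjusted p = 0.0024), or -0.99 with replicates 1 and 2 alone and -2.05 with replicates 3 and 4 alone. TTK, the spindle checkpoint kinase, had -1.55 ± 0.36 (adjusted p = 0.0051), with 90.3 against 32.4 CPM in 786-M1A and 7.98 against 8.47 CPM in OS-LM1. MKI67, the proliferation marker, differed by 0.55 in 786-M1A and -0.45 in OS-LM1.

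S-phase genes did not follow the G2/M genes. Of 42 tested, 5 were above 0 and 4 below, close to the 22.9% of all genes. They were lower with shPAX8-1 in both lines, 23 in 786-M1A and 29 in OS-LM1, with medians of -0.49 and -0.56. The count of interactions was 3 with replicates 1 and 2 of 786-M1A shPAX8-1 alone and 20 with replicates 3 and 4 alone, and it ranged from 5 to 15 without single libraries, with counts over 1.5 times apart without 786-M1A shPAX8-1 replicate 1 or 3 or OS-LM1 shPAX8-2 replicate 2. UNG, the uracil-DNA glycosylase, had 0.96 ± 0.17 (adjusted p = 7e-04), at 12.6 ± 2.14 against 26.2 ± 3.17 CPM in 786-M1A and 45.9 ± 2.71 against 49.0 ± 1.75 CPM in OS-LM1. BLM, the helicase of Bloom syndrome, had -1.13 (adjusted p = 0.0034), and USP1, a deubiquitinase of DNA repair, had -1.14 (adjusted p = 0.0218), a call lost in 3 of the 16 fits without 1 library and with replicates 1 and 2 alone (-0.61, adjusted p = 0.183). The other members below 0 were DSCC1 (-0.85) and DTL (-0.78). The others above 0 were UHRF1 (0.86), CHAF1B (0.56) and the helicase subunits MCM5 (0.82) and MCM4 (0.62).

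Among 20 G1 cyclins, kinases and inhibitors, 4 were below 0 and 1 above, a share near the 22.9% of all genes, and the count reached 9 with replicates 3 and 4 of 786-M1A shPAX8-1 alone and 8 without replicate 1 of that group. CDKN1A, the p21 inhibitor, was at 223, 180, 182 and 174 CPM with shPAX8-1 and 422, 428, 383 and 425 CPM with shPAX8-2 in 786-M1A. Its OS-LM1 levels were 656, 629, 595 and 675 CPM with shPAX8-1 and 590, 590, 681 and 687 CPM with shPAX8-2. The groups were apart in 786-M1A and overlapped in OS-LM1, with an interaction of 1.13 ± 0.14 (adjusted p = 2e-05). E2F7, an atypical E2F repressor, was 447 ± 52 against 141 ± 19.0 CPM in 786-M1A and 94.9 ± 8.08 against 83.0 ± 2.28 CPM in OS-LM1, an interaction of -1.47 ± 0.15 (adjusted p = 5e-06). CDK6, a G1 kinase, had -0.89 (adjusted p = 4.4e-04), and the other members below 0 were RB1 (-0.71) and E2F3 (-0.61).

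p53 targets lay mostly above 0. Of 28, 8 were above 0 and 3 below, with a median of 0.33, and 12 were lower with shPAX8-1 in 786-M1A. DDB2, a DNA damage sensor, was at 8.38, 8.81, 6.73 and 6.06 CPM with shPAX8-1 and 24.6, 28.3, 22.1 and 25.6 CPM with shPAX8-2 in 786-M1A, and averaged 23.3 ± 1.87 and 25 ± 3.32 CPM in OS-LM1. Its 786-M1A groups did not overlap, and the interaction was 1.64 ± 0.19 (adjusted p = 1.6e-05). BTG2, an antiproliferative gene, was lower with shPAX8-1 in 786-M1A (-1.49) and higher in OS-LM1 (0.44), an interaction of 1.93 ± 0.20 (adjusted p = 4.1e-06). FDXR, a mitochondrial reductase, had 1.28 (adjusted p = 0.0115), which was 0.88 and not past the test (adjusted p = 0.0635) with replicates 1 and 2 alone. The 3 members below 0 were GADD45A (-1.21), PLK2 (-1.04) and GDF15 (-0.48), and MDM2, the negative regulator of p53, did not pass the test (-0.30).

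ANKRD1, at chr10:90912096-90921087, is a target of YAP and TAZ, the effectors of the Hippo pathway. Its interaction was the largest below 0 among genes with an average log2 CPM of at least 3 that passed the test in all 16 fits without 1 library. In 786-M1A it was at 188, 217, 228 and 232 CPM with shPAX8-1 and 28.2, 30.5, 33.7 and 27.8 CPM with shPAX8-2, 7.19-fold apart. In OS-LM1 it was at 8.33, 7.38, 8.86 and 8.16 CPM with shPAX8-1 and 18.9, 21.1, 18.7 and 18.8 CPM with shPAX8-2, 2.37-fold apart the other way. No groups overlapped within a line. The interaction was -4.09 ± 0.15 (adjusted p = 1.8e-12).

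Other YAP and TAZ targets shared this direction in part. Of 16 Hippo pathway genes, 5 were below 0 and 1 above, with 8 lower with shPAX8-1 in OS-LM1 and none higher. CTGF, a matricellular growth factor also called CCN2, was at 231, 275, 190 and 200 CPM with shPAX8-1 and 146, 131, 159 and 160 CPM with shPAX8-2 in 786-M1A. In OS-LM1 it was at 1082, 981, 835 and 971 CPM with shPAX8-1 and 2983, 3052, 2735 and 3056 CPM with shPAX8-2. The groups were apart in both lines in opposite directions, with an interaction of -2.20 ± 0.17 (adjusted p = 2e-07). Its relative CYR61 had -0.95 ± 0.18 (adjusted p = 0.0011), from 1045 ± 61.4 against 1825 ± 119 CPM in OS-LM1, with 869 ± 185 against 787 ± 90.4 CPM in 786-M1A. YAP1 and WWTR1, which encode YAP and TAZ, did not pass the interaction test (-0.06 and -0.14). The other members below 0 were TEAD1 (-0.63), a DNA-binding partner of YAP, and the kinase LATS1 (-0.53), and the receptor AXL (0.46) was above.

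TGF-beta ligands and receptors moved in both directions. Of 28 TGF-beta and BMP genes, 9 were below 0 and 5 above, with a median of -0.12. TGFB2, a ligand, was at 360, 387, 474 and 455 CPM with shPAX8-1 and 256, 221, 303 and 226 CPM with shPAX8-2 in 786-M1A, and at 152, 141, 162 and 156 CPM and 240, 310, 251 and 264 CPM in OS-LM1. Its groups were apart in both lines in opposite directions (-1.54 ± 0.17, adjusted p = 7.1e-06). The type I receptor TGFBR1 had -1.63 ± 0.25 (adjusted p = 2e-04) and the activin subunit INHBA -1.06 (adjusted p = 6.1e-04), while the type II receptor TGFBR2 had 0.92 and the signal transducer SMAD3 0.80. The other members above 0 were LTBP2 (1.05), TGFBI (0.98) and ID2 (0.68).

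Inflammatory genes were among the lists with most calls. Of 31 NF-kB and inflammatory genes, 13 were below 0 and 1 above, with a median of -0.58, and 16 were higher with shPAX8-1 in 786-M1A. CXCL8, the neutrophil chemokine interleukin-8, was at 30.2, 37.0, 62.6 and 64.5 CPM with shPAX8-1 and 6.78, 6.48, 6.31 and 4.93 CPM with shPAX8-2 in 786-M1A, 7.93-fold apart. In OS-LM1 its level was higher by far, at 806, 736, 1196 and 799 CPM and 748, 951, 736 and 673 CPM, and the groups overlapped. The interaction was -2.79 ± 0.31 (adjusted p = 8.4e-06). TNFAIP3, the feedback inhibitor A20, had -1.90 ± 0.18 (adjusted p = 2.6e-06), with 46.7 ± 7.40 against 19.4 ± 2.30 CPM in 786-M1A and 170 ± 19.1 against 264 ± 32.4 CPM in OS-LM1. CCL2, a monocyte chemokine, had -1.80 ± 0.27 (adjusted p = 1.8e-04), with 452 ± 101 against 991 ± 187 CPM in OS-LM1. The member above 0 was TNFAIP2 (0.79). The genes of the NF-kB subunits RELA and NFKB2 did not pass the test (0.25 and 0.15).

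Immediate early and ERK feedback genes, which respond within minutes to growth signals, gave 7 interactions below 0 and 2 above among 28 (32.1%, against 22.9% of all genes). With the GC trend removed there were 17 calls. DUSP1, a phosphatase of MAP kinases, was at 322, 238, 299 and 304 CPM with shPAX8-1 and 219, 225, 180 and 192 CPM with shPAX8-2 in 786-M1A. Its OS-LM1 levels were 295, 316, 292 and 308 CPM with shPAX8-1 and 541, 531, 590 and 628 CPM with shPAX8-2. The directions were opposite, with no overlap in either line (-1.43 ± 0.15, adjusted p = 4.4e-06). IER3 had -1.13 (adjusted p = 2.3e-05) and the transcription factor KLF6 -1.12 (adjusted p = 8.6e-04). The members above 0 were the ERK phosphatases DUSP6 (0.92) and DUSP4 (0.90).

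**Figure D4:**
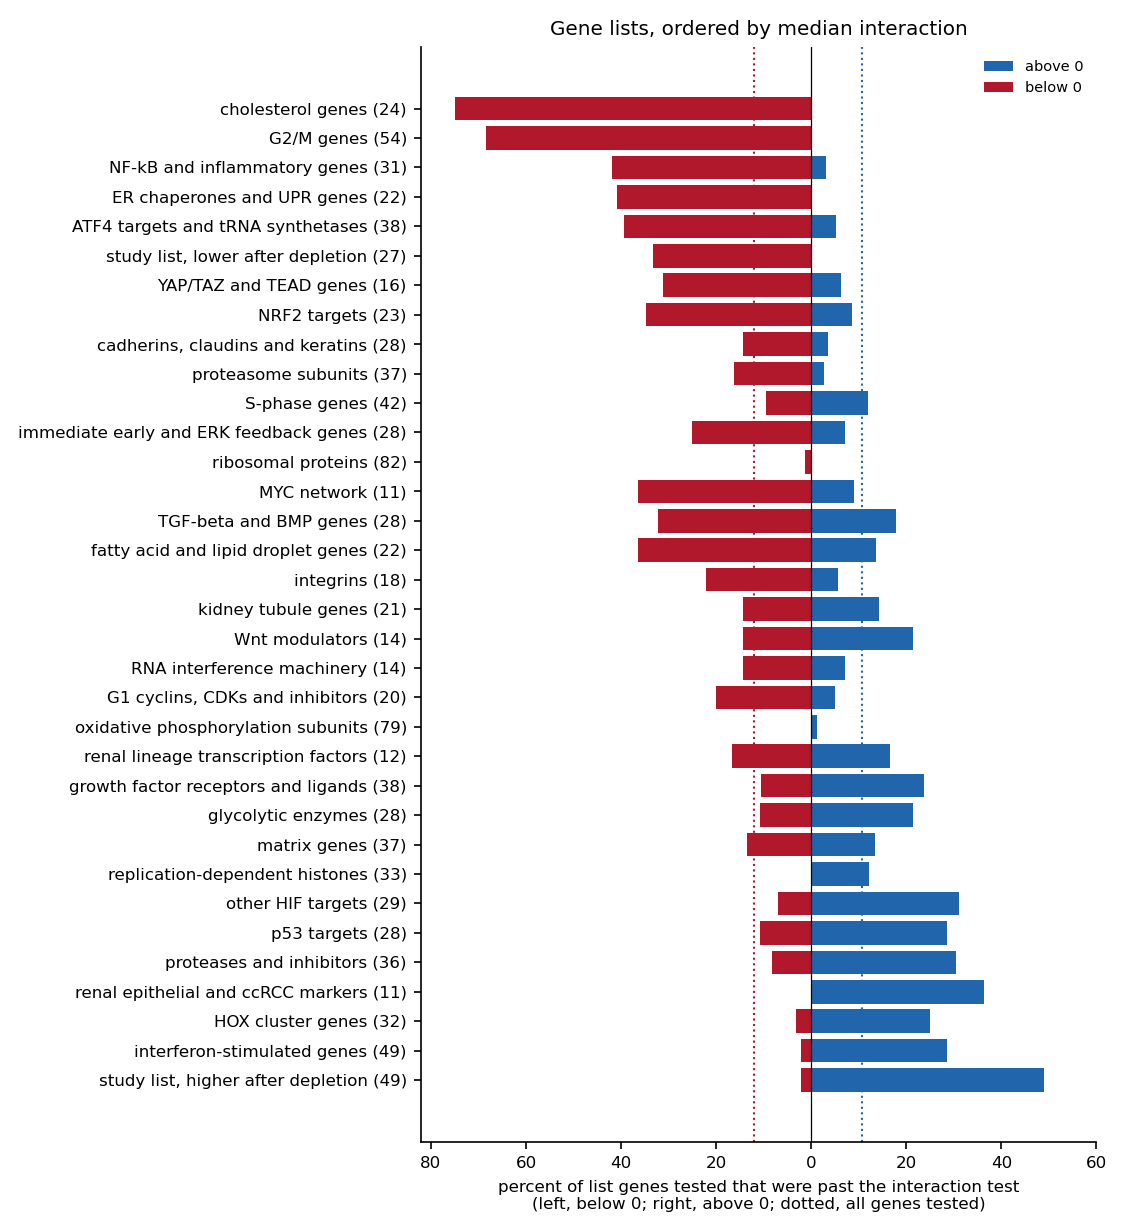
Percent of the tested genes of each list with at least 10 tested genes that passed the interaction test, below 0 to the left in red and above 0 to the right in blue, ordered by median interaction, with list size in brackets. Dotted lines mark all genes tested, 12.0% below and 10.8% above 0, and the cholesterol and G2/M lists reach 75% and 68.5% below 0.

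Proteases lay mostly above 0. Of 36 protease and inhibitor genes, 11 were above 0 and 3 below, with a median of 0.35. MMP1, the interstitial collagenase at chr11:102789919-102798160, was at 110, 88.8, 138 and 92.5 CPM with shPAX8-1 and 2.94, 3.79, 3.53 and 3.03 CPM with shPAX8-2 in OS-LM1, 32.3-fold apart. In 786-M1A it was at 7.13, 7.63, 10.1 and 11.1 CPM with shPAX8-1 and 3.19, 3.24, 3.57 and 3.20 CPM with shPAX8-2, 2.72-fold apart in the same direction. The interaction was 3.56 ± 0.25 (adjusted p = 9.9e-08). It was the largest above 0 among genes with an average log2 CPM of at least 3 that passed the test in all 16 fits without 1 library.

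MMP3, the stromelysin next to it at chr11:102835801-102843609, was at 370, 392, 358 and 358 CPM with shPAX8-1 and 24.8, 29.6, 26.0 and 30.3 CPM with shPAX8-2 in OS-LM1. In 786-M1A it stayed under 1 CPM in all 8 libraries, and the interaction was 2.84 ± 0.46 (adjusted p = 3.5e-04). ADAM12, a membrane-bound metalloproteinase on chromosome 10, was at 31.4, 30.7, 33.5 and 31.8 CPM with shPAX8-1 and 4.27, 4.74, 6.0 and 5.87 CPM with shPAX8-2 in OS-LM1. It averaged 62.6 ± 4.57 and 42.0 ± 4.33 CPM in 786-M1A, with an interaction of 2.01 ± 0.17 (adjusted p = 5.6e-07). The 3 members below 0 were the ADAMTS family genes ADAMTS6 (-1.94), ADAMTS1 (-1.75) and ADAMTS9 (-0.61).

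Of 37 matrix genes, 5 were above and 5 below 0, 27.0% against 22.9% of all genes. The split was 11 above and 3 below with replicates 3 and 4 of 786-M1A shPAX8-1 alone, 8 and 4 without replicate 1 of that group, and 5 and 8 with the GC trend removed. POSTN, which encodes the matrix protein periostin, was at 8.96 ± 1.46 against 0.725 ± 0.307 CPM in OS-LM1 and at 0 with shPAX8-1 in all 4 libraries of 786-M1A, so no interaction is given. COL5A2, a fibrillar collagen, was at 359 ± 70.2 against 122 ± 8.62 CPM in OS-LM1 and near 1 CPM in 786-M1A, and its interaction of 1.16 (adjusted p = 0.0168) did not pass the test without 786-M1A shPAX8-2 replicate 2 or 4 (adjusted p up to 0.0746). LAMB3, a laminin chain of epithelial basement membranes, had -1.09 (adjusted p = 0.0018). LAMA1 had -0.87 (adjusted p = 0.0479), a call lost in 11 of the 16 fits without 1 library and with replicates 3 and 4 of 786-M1A shPAX8-1 alone (adjusted p = 0.0984). The others were THBS1 (-0.68), LAMB1 (-0.45) and TNC below 0 and COL13A1 (0.77), COL12A1 (0.55) and SPARC (0.47) above. Of 18 integrins, the receptors for matrix, 4 were below 0 and 1 above, 27.8% and near the 22.9% of all genes. These were ITGA1 at -1.56 (adjusted p = 5.8e-05), ITGA2 at -0.77 (adjusted p = 9.7e-04) and ITGB5 at 0.79 (adjusted p = 0.007), with ITGAV (-0.75) and ITGB3 (-0.66) also below. Of 28 cadherins, claudins and keratins, 4 were below 0 and 1 above (17.9%), with CLDN1 at -1.26 (adjusted p = 1.1e-04), CLDN12 at -0.92 (adjusted p = 0.0019) and KRT19 at -0.90 (adjusted p = 0.0033). VIM, the mesenchymal filament vimentin, was above 0 at 0.43, and KRT17 was at 1.52 against 3.02 CPM in OS-LM1 and at 0 with shPAX8-2 in 786-M1A. This count was 9 with the GC trend removed and 3 without 786-M1A shPAX8-2 replicate 2. None of 6 transcription factors of the epithelial-mesenchymal transition passed edgeR's interaction test, 1 had an unadjusted p under 0.05, and DESeq2 also called none. The count was 1 with the GC trend removed or with replicates 3 and 4 of 786-M1A shPAX8-1 alone, and 3 with the replicate block and GC removal together.

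Interferon-stimulated genes, the antiviral programme, lay mostly above 0 where they passed the test. Of 49, 14 were above and 1 below (30.6%, against 22.9% of all genes), with a median of 0.52. In OS-LM1 23 were higher and 2 lower with shPAX8-1, against 10 higher and 15 lower in 786-M1A. The count of interactions was 10 at the lowest without a single library, 24 without 786-M1A shPAX8-1 replicate 1 and 27 with replicates 3 and 4 of that group alone. SAMD9L and its neighbour SAMD9 on chromosome 7, both interferon-inducible antiproliferative genes, had the largest interactions among members with an average log2 CPM of at least 2. SAMD9L was at 53.8, 47.2, 59.9 and 49.4 CPM with shPAX8-1 and 16.5, 19.6, 14.6 and 16.8 CPM with shPAX8-2 in OS-LM1. In 786-M1A it was at 3.56, 4.19, 5.47 and 5.95 CPM with shPAX8-1 and 8.78, 8.92, 14.3 and 9.87 CPM with shPAX8-2, so the order of the constructs was reversed with no overlap. The interaction was 2.76 ± 0.24 (adjusted p = 1e-06), and that of SAMD9 was 2.43 ± 0.27 (adjusted p = 9.5e-06). IFI35 had 1.77 (adjusted p = 5.3e-04) and also differed in opposite directions. The IFIT genes did not: IFIT1, IFIT2 and IFIT3, which bind viral RNA, were higher with shPAX8-1 by 1.24, 1.27 and 1.66 in 786-M1A and by 1.74, 1.59 and 1.99 in OS-LM1, and none passed the interaction test.

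The study lists genes that were higher or lower in its depletion experiments. These lists were chosen on measurements that include these libraries and are no independent evidence of a direction. Of the 49 genes on the higher list, 24 were above 0 and 1 (SCG5, -0.78) below, with a median of 0.82. In OS-LM1 33 were higher with shPAX8-1 and 3 lower, and in 786-M1A 9 were higher and 11 lower, with 8 past both tests in opposite directions. LINC01279 led with 3.12 ± 0.23 (adjusted p = 2e-07), at 56.1 against 8.64 CPM in OS-LM1 and 3.04 against 4.09 CPM in 786-M1A. The files count it apart from CCDC80, but RefSeq lists the name as a synonym of that protein-coding gene, so the reads of both may be shared and the value is uncertain. CCDC80 itself had 1.45 ± 0.15 (adjusted p = 4.3e-06). SAMD9L and SAMD9 followed among genes with an average log2 CPM of at least 2. Of the 27 tested genes on the lower list, 9 were below 0 and none above, with 18 called after removal of the GC trend. CDHR1, a photoreceptor cadherin gene, had -1.68 (adjusted p = 0.0071), PPP1R14C, a phosphatase inhibitor, -1.32 (adjusted p = 4e-04), and GAS2L3, a cytoskeletal linker that is also a G2/M gene, -0.95 (adjusted p = 0.0117, and 0.0868 with 786-M1A shPAX8-1 replicates 1 and 2 alone).

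Hypoxia-inducible genes outside glycolysis lay above 0 in 9 cases and below in 2 among 29, and 13 were lower with shPAX8-1 in 786-M1A. The count was 7 with replicates 1 and 2 of 786-M1A shPAX8-1 alone. EGLN3, an oxygen-sensing prolyl hydroxylase, was at 99.2, 76.4, 88.5 and 83.2 CPM with shPAX8-1 and 192, 185, 186 and 182 CPM with shPAX8-2 in 786-M1A. In OS-LM1 it averaged 78.1 ± 7.24 and 74.5 ± 4.54 CPM, and the groups overlapped (1.17 ± 0.14, adjusted p = 1.6e-05). ANGPTL4, a lipase inhibitor, had 1.87 ± 0.28 (adjusted p = 1.7e-04). Its level with shPAX8-1 was 6.84-fold lower in 786-M1A and 1.85-fold lower in OS-LM1. CXCR4, a chemokine receptor, had 1.52 (adjusted p = 0.0096), at 5.43 against 18.5 CPM in 786-M1A and only 0.704 against 0.817 CPM in OS-LM1. The members below 0 were BHLHE41 (-0.90) and KDM3A (-0.53). CA9 and VEGFA, the ccRCC surface antigen and the angiogenic factor, did not pass the test (1.22 and 0.11). CA9 averaged 0.0288 and 0.0405 CPM in 786-M1A, against 42.0 and 29.4 CPM in OS-LM1, so its interaction rests on few counts.

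Of 28 glycolytic genes, 6 were above and 3 below 0, with 4 calls from replicates 1 and 2 of 786-M1A shPAX8-1 alone and 14 from replicates 3 and 4. PDK2, a kinase that restrains pyruvate oxidation, was 15.4 ± 4.22 against 36.0 ± 3.63 CPM in 786-M1A and 55.1 ± 9.78 against 39.0 ± 4.58 CPM in OS-LM1, an interaction of 1.72 ± 0.23 (adjusted p = 6.6e-05). PFKFB4, a regulator of glycolytic flux, had 1.33 (adjusted p = 0.0012). The members below 0 were PFKFB2 (-0.78), LDHB (-0.59) and SLC16A1 (-0.58). SLC16A3, the lactate exporter, had 1.09 (adjusted p = 0.0139), which was 0.71 (adjusted p = 0.0596) with replicates 1 and 2 alone. Growth factors and receptors gave 9 interactions above and 4 below 0 among 38, a count that was 8 with replicates 1 and 2 of 786-M1A shPAX8-1 alone. It was also over 1.5 times lower, and 7 at the lowest, without any of 6 libraries, which were 786-M1A shPAX8-1 replicate 3, shPAX8-2 replicates 1 and 2, and OS-LM1 shPAX8-1 replicate 4 and shPAX8-2 replicates 2 and 4. TGFA, an EGFR ligand and HIF target, was at 204, 189, 199 and 189 CPM with shPAX8-1 and 608, 550, 596 and 551 CPM with shPAX8-2 in 786-M1A, and averaged 301 ± 14.4 and 411 ± 16 CPM in OS-LM1. Its groups were apart in both lines in the same direction (1.11 ± 0.11, adjusted p = 3.6e-06). NRP2, a semaphorin and VEGF-C receptor, had -1.01 (adjusted p = 3.2e-05) and HBEGF -0.95 (adjusted p = 2.7e-04), with PDGFA (-0.78) and FGF5 (-0.65) also below 0.

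Lineage genes were called in both directions, at 33.3% of renal lineage transcription factors, 28.6% of kidney tubule genes and 36.4% of renal and ccRCC markers against 22.9% of all genes. Of 12 renal lineage transcription factors tested, PAX8 and PAX2 (0.69) were above 0 and TFCP2L1 (-1.56) and HNF4G (-1.39) below, and the count ranged from 2 to 5 without single libraries. It was over 1.5 times lower without 786-M1A shPAX8-2 replicate 1, OS-LM1 shPAX8-1 replicate 4 or OS-LM1 shPAX8-2 replicate 1 or 2. Of 21 kidney tubule genes 3 were above and 3 below, and 10 were called with replicates 3 and 4 of 786-M1A shPAX8-1 alone. SLC47A1, a tubular cation exporter, had 1.49 (adjusted p = 0.0038) at no more than 1.13 CPM in 786-M1A and 28.1 CPM with both constructs in OS-LM1. ANPEP, a brush border peptidase, had 1.05 (adjusted p = 0.0032). UGT1A6, a glucuronosyltransferase, had -1.21 (adjusted p = 1.8e-04), but it shares exons with the other UGT1A genes and its counts are uncertain. The others were the water channel AQP1 (1.20) above 0, and ENPP3 (-1.95) and ceruloplasmin, CP (-0.51), below. Of 11 renal and ccRCC markers, 4 were above 0, namely PAX8, PAX2, EGLN3 and VIM (0.43), and 2 were called without OS-LM1 shPAX8-2 replicate 1 or with 786-M1A shPAX8-1 replicates 1 and 2 alone. In the MYC network 4 of 11 were below and 1 above 0, with the MYC antagonists MXD1 at -1.65 (adjusted p = 1e-04) and MXD4 at 1.09 (adjusted p = 0.0019) and the repressor MGA at -1.0 (adjusted p = 0.0013), and with MAX (-0.83) and MYC also below. Of 32 HOX genes, 8 were above and 1 below 0, 28.1% and near the 22.9% of all genes. Among them were HOXB5 at 1.23, HOXB8 at 1.17, HOXA4 at 0.99 and HOXB9 at -0.63, with 5 calls from replicates 1 and 2 of 786-M1A shPAX8-1 alone. Of 14 Wnt modulators, 3 were above and 2 below 0, with APCDD1L at 2.29 (adjusted p = 2.1e-05), DKK3 at 1.15 (adjusted p = 0.0153, 0.0539 without OS-LM1 shPAX8-1 replicate 4) and LGR4 at -0.90 (adjusted p = 0.0084, and 0.0616 with 786-M1A shPAX8-1 replicates 1 and 2 alone). FZD2 (0.64) and WNT10A (-1.68) were the others, and 3 were called with those replicates alone or with libraries thinned to the smallest.

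Housekeeping lists held few calls. Of 82 ribosomal protein genes 1 (RPL22L1, -2.05) passed the test, and of 79 oxidative phosphorylation genes 1 (NDUFA11, 0.67) passed, against 22.9% of all genes. Without single libraries these counts ranged from 1 to 10 and from 0 to 4, and with the GC trend removed they were 7 and 0. With replicates 3 and 4 of 786-M1A shPAX8-1 alone these counts were 26 and 21, and with replicates 1 and 2 alone 1 and 0. Of 37 proteasome genes 6 were below and 1 above 0, with PSMD14 at -0.95, PSMA3 at -0.89 and PSMD1 at -0.68, with PSMB9 (0.61) above, and PSMA3 kept its call in 6 of the 16 fits without 1 library. With replicates 1 and 2 of 786-M1A shPAX8-1 alone PSMD14, PSMA3 and PSMD1 did not pass (adjusted p = 0.166, 0.369 and 0.113). The proteasome count was 3 with replicates 1 and 2 alone, 20 with replicates 3 and 4 alone, and 4 to 15 without single libraries. Of 33 replication-dependent histones 4 were above 0 (HIST1H2BC at 1.63, HIST1H2AC at 1.54, HIST1H1C at 1.24 and HIST1H2BD at 0.89), with 8 called at most without a single library and 10 with replicates 3 and 4 of 786-M1A shPAX8-1 alone. Of 4 metallothioneins 1 was below (MT1F, -1.16). Of 14 genes of the RNA interference machinery 1 was above (DGCR8, 0.78) and 2 below (DICER1, -0.57, and AGO3, -0.81), 21.4% and near the share of all genes, with 5 called from those replicates 3 and 4. Of 3 tested immune markers 1 was above 0 (CD68, 0.93), as was 1 of 5 fibroblast markers (LUM, 1.42). LUM was not called without OS-LM1 shPAX8-1 replicate 1 or shPAX8-2 replicate 3. Fibroblast calls were 2 after GC removal and with replicates 3 and 4 of 786-M1A shPAX8-1 alone. The endothelial marker tested was not called.

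Among genes with an average log2 CPM of at least 3, in the lists or not, the 10 largest interactions in each direction that held in all 16 fits without 1 library included genes that were expressed almost wholly in 1 line. Above 0 these were MMP1, LINC01279, WISP2, STXBP5-AS1, MMP3, ANKRD20A12P, SAMD9L, CHRDL1, BRINP1 and TSPAN10, from 3.56 to 2.60. CHRDL1, a BMP antagonist, was at 129 ± 13 and 116 ± 7.13 CPM in 786-M1A and at 0.518 against 0.0391 CPM in OS-LM1, and WISP2, a matricellular gene also called CCN5, was at 29.0 ± 4.23 and 17.1 ± 5.38 CPM in OS-LM1 and at 0.112 against 0.547 CPM in 786-M1A. Such values rest on few counts in the lower line. BRINP1 was at 10.4 against 38.1 CPM in 786-M1A and 0.493 against 0.270 CPM in OS-LM1. STXBP5-AS1 lies antisense to STXBP5, and its reads cannot be told apart from those of its partner. ANKRD20A12P is a pseudogene with near-identical copies.

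Below 0 the 10 were ANKRD1, KRTAP2-3, MAMDC2, CXCL8, RASGRP1, FAM84B, RND3, PRTG, IDI1 and LIPG, from -4.09 to -2.24. MAMDC2 was at 97.8 against 72.4 CPM in 786-M1A and at 0.0905 against 0.495 CPM in OS-LM1. PRTG was at 23.6 against 11.6 CPM in 786-M1A and at 0.177 against 0.426 CPM in OS-LM1. Both interactions rest on few counts in OS-LM1. RND3, an atypical small GTPase that opposes contractility, was at 226, 169, 340 and 334 CPM with shPAX8-1 and 61, 57.3, 64.8 and 57.1 CPM with shPAX8-2 in 786-M1A. In OS-LM1 it averaged 187 ± 24.6 and 224 ± 15.3 CPM (-2.41 ± 0.24, adjusted p = 2.8e-06). KRTAP2-3, a hair keratin-associated gene with near-identical copies, was at 46.6, 34.8, 42.3 and 43.8 CPM with shPAX8-1 and 3.88, 2.81, 2.66 and 1.73 CPM with shPAX8-2 in 786-M1A, 15.1-fold apart, and overlapped between constructs in OS-LM1 (-3.51 ± 0.30, adjusted p = 7.6e-07). FAM84B was higher with shPAX8-1 in 786-M1A (66.8 ± 17.1 against 41.0 ± 3.73 CPM) and lower in OS-LM1 (19.0 ± 1.40 against 64.6 ± 6.62 CPM). RASGRP1, a Ras activator, also differed in opposite directions, by 1.89 and -0.70.

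The construct difference followed the GC content of transcripts in 786-M1A. Across 14776 genes, Spearman's rank correlation with GC percent was -0.534 in 786-M1A, -0.190 in OS-LM1 and 0.400 for the interaction, as a description across genes that share their libraries. The median interaction ran from -0.40 in the lowest of 10 GC bins of genes to 0.40 in the highest. With replicates 1 and 2 of 786-M1A shPAX8-1 alone the coefficient of the interaction was 0.111, and with replicates 3 and 4 alone 0.539, the libraries whose counted GC content was lowest in that line. Subtracting a spline of GC from the log2 levels of each library took the coefficient to 0.0301 and gave 4441 interactions, of which 3053 were among the 3453, and 1 of the 3453 changed sign. Of the 6851 genes that differed in 786-M1A, 4702 (68.6%) were still called and 242 changed sign. The cholesterol list then held 22 calls and the G2/M list 45, and PAX8 had an interaction of 0.87 (adjusted p = 5.4e-05). Whether preparation or biology gave the GC trend was not tested. Transcript length had a coefficient of -0.129 with the interaction. By chromosome, the median interaction ranged from -0.21 on chromosome 18 to 0.23 on chromosome 19, whose genes have median GC of 43.0% and 58.0%.

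**Figure D5:**
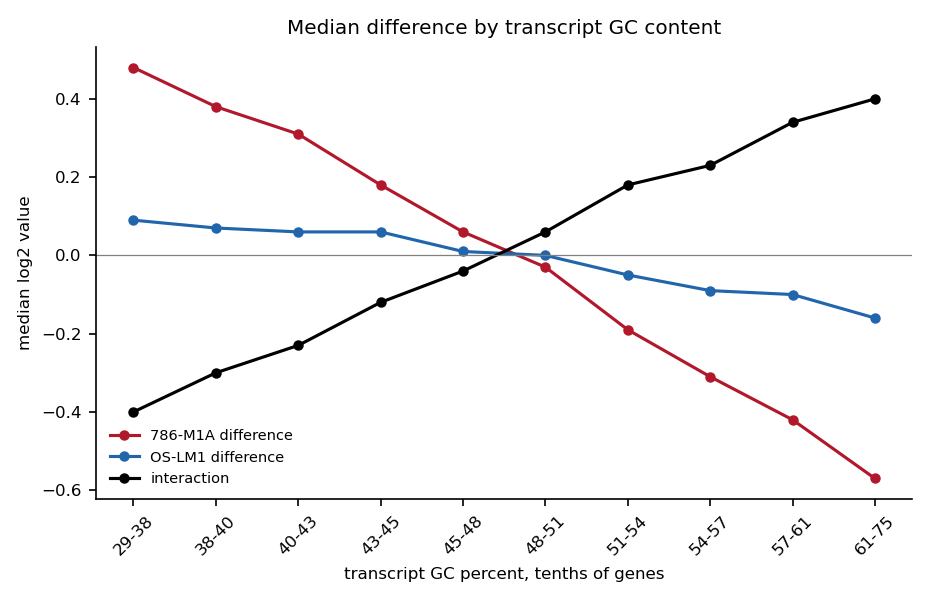
Median construct difference in 786-M1A and OS-LM1 and median interaction (log2) for 14776 genes in 10 equal bins of transcript GC percent. The 786-M1A median falls from 0.48 to -0.57, the OS-LM1 median from 0.09 to -0.16, and the interaction climbs from -0.40 to 0.40.

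Transcripts that carry a match to a guide's seed differed between the constructs in the same direction in both lines for shPAX8-1. The searched letters were GACTCAC for shPAX8-1 and CAACTCT for shPAX8-2, on the transcript strand of the annotated 3′ untranslated region of 13340 tested genes. The shPAX8-1 match alone was present in 978 genes (7.33%), which had a median construct difference of -0.21 in 786-M1A and -0.14 in OS-LM1 and a median interaction of 0.05. The shPAX8-2 match alone was present in 1574 genes (11.8%), with medians of 0.14, 0.02 and -0.13. Genes with neither match (10525, 78.9%) had medians within 0.01 of 0 in both lines. Genes with a match have longer 3′ regions, with a median of 2926 and 3386 bases against 1535, and 3′ regions with the shPAX8-2 match belong to genes of lower GC content (44.4% against 48.6%). With the GC trend removed, the medians in 786-M1A and OS-LM1 were -0.18 and -0.17 for the shPAX8-1 match, 0.05 and -0.05 for the shPAX8-2 match, and 0.03 and -0.04 for neither. A match is a description of these letters and not a site of action.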

How the data were processed

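RNA was sequenced by the authors, who mapped reads to hg38 (GRCh38) with RSEM and Bowtie2; versions and annotation are not given in the sources used here. Each deposited file gives expected counts from RSEM, not normalized, for 26475 genes. Labels name a KAPA stranded mRNA kit and the methods name Lexogen kits. Expected counts of the 16 shPAX8 libraries (11634419 to 52059375 each) were rounded, filtered with filterByExpr of edgeR 4.0.16 (15101 genes kept), normalized by TMM and fitted in R 4.3.3 as 4 groups with the robust quasi-likelihood test. Adjusted p is Benjamini-Hochberg over all genes tested, with a threshold of 0.05. CPM uses the TMM library size. Depth limits low genes, so values under 1 CPM rest on few counts. On simulated data, 96% and 98% of interactions of -2 and 2, and 68% and 70% of -1 and 1, were recovered.

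Gene members, the 40 gene lists and the tests were chosen with earlier results of these data known. Named genes were all of the study's genes, the 10 largest interactions each way (average log2 CPM at least 3, past the test in all 16 fits that leave out 1 library) and the 3 largest in each list with 5 or more calls (average log2 CPM at least 2). Other list genes, mostly members behind small counts, were named after their values were seen. Gene positions are those of RefSeq on GRCh38, with 26326 of 26475 genes matched, and transcript GC, length and 3′ regions those of GENCODE. RNA interference guides were read from the study's supplement. Of 103 named genes 55 overlap another annotated gene. Same-numbered libraries of the constructs were compared by the correlation of their deviations from the group means. The coefficient was 0.0372 to 0.306 in 786-M1A and -0.188 to 0.146 in OS-LM1 (over 0.1 in 4 of 8 pairs). In 786-M1A it reached 0.336 (replicate 1 with 2) and 0.358 (replicate 4 with 3) for unlike numbers, so single numbers were not taken to pair libraries. Within replicates 1 and 2, and within 3 and 4, it was 0.0219 to 0.358 between the constructs. Across these sets it was -0.409 to 0.0346, so both constructs shared the split in 786-M1A. No block for these sets was fitted. Alternatives were DESeq2 1.42.0, its size factors, no count filter, a replicate block, the GC trend removed, thinning to the smallest library, subsets of 786-M1A shPAX8-1 and omission of each library. Some genes are not reported here.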

Additional observations from a re-analysis of the deposited data

Results flagged for a closer look

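Each group of 4 libraries was screened for a highest or lowest library set apart from the other 3 (by Dixon's ratio of the gap to the group's range), over the 103 named genes. Of 412 groups, 23 (5.58%) were set apart, and chance gives about 1 in 20. The libraries most often set apart were 786-M1A shPAX8-2 replicate 3 (7 times), OS-LM1 shPAX8-1 replicate 3 (5 times) and 786-M1A shPAX8-1 replicate 1 (4 times).

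In 786-M1A shPAX8-2 replicate 3, the smallest library, MMP1 (3.57 CPM), DNAJB9 (18.8 CPM), PPP1R14C (2.57 CPM) and TOP2A (255 CPM) were above the other replicates. LIPG (1.58 CPM), CDKN1A (383 CPM) and ITGB5 (450.0 CPM) were below them there. Replicate 4 of that group was above for BRINP1 (41.1 CPM).

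In OS-LM1 shPAX8-1 replicate 3, CXCL8 (1196 CPM), COL5A2 (464 CPM), HSPA5 (843 CPM), BLM (6.79 CPM) and TOP2A (88.9 CPM) were above the other replicates. Replicate 2 of that group was above for ARNT (62.4 CPM) and PFKFB4 (7.80 CPM), and replicate 1 was below for DKK3 (0.194 CPM). In OS-LM1 shPAX8-2 replicate 2, ANKRD1 (21.1 CPM) and HSPA5 (711 CPM) were above and CDHR1 (8.18 CPM) was below the others. In 786-M1A shPAX8-1 replicate 1, MYEOV (34.8 CPM), CDKN1A (223 CPM) and CHAC1 (12.7 CPM) were above and BLM (4.24 CPM) was below.

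Since the interaction is itself a test of a difference between lines, its 3453 genes all meet the condition for a difference between groups, among them PAX8 (1.16), MYC (-0.77) and EPAS1 (0.51).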

How the results depend on the processing

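The main limit is the split of 786-M1A shPAX8-1. With its replicates 1 and 2 alone 2067 genes passed the interaction test and 3378 differed in 786-M1A, and with replicates 3 and 4 alone 6429 passed the interaction test and 495 list genes did, against 318 in the main analysis. Removal of the GC trend gave 4733 genes in OS-LM1, and 4814 together with the replicate block. At an adjusted p under 0.01 the counts were 1632 for the interaction, 4535 in 786-M1A and 1595 in OS-LM1, and at an absolute log2 value over 0.58 they were 4403 in 786-M1A and 1781 in OS-LM1. Without single libraries the interaction count ranged from 2605 to 4627. The cause of these shifts was not tested beyond the values given. With the replicate block, whose numbers were not taken to pair the libraries in the main test, the interaction count was 3513 and PAX8 had 1.18. PAX8 stayed past the test in all 25 alternatives (0.86 to 1.5). With the GC trend removed 242 of the 6851 genes called in 786-M1A changed sign and 68.6% were still called. Among named genes, the values that reversed were those of HIF1A (-0.17 with replicates 3 and 4 alone) and ARNT (0.05 likewise), neither past the test, and without single libraries HIF1A ranged from -0.03 to 0.18 and ARNT from -0.07 to 0.05. Of the 40 lists, 15 stayed within 1.5 times of their main count in all 25 alternatives. Genes near 1 CPM rest on few counts in the smaller libraries.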

Other observations

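Metalloproteinase genes that neighbour MMP1 and MMP3 on chromosome 11 were looked at after their values were seen. Of 10 tested genes between BIRC3 (start 102317484) and MMP13 (end 102955732), 6 passed the interaction test, which 22.9% of all genes passed. These 6 include MMP1 and MMP3, whose values led to the region, and BIRC3, which was below 0. MMP10, another stromelysin, was at 3.10, 2.74, 1.92 and 1.85 CPM with shPAX8-1 and at most 0.128 CPM with shPAX8-2 in OS-LM1, and at most 0.270 CPM in 786-M1A. MMP13, a collagenase, was at 5.13, 4.74, 3.39 and 3.70 CPM with shPAX8-1 and 0.560, 0.474, 0.498 and 0.447 CPM with shPAX8-2 in OS-LM1, and averaged 1.24 and 1.23 CPM in 786-M1A (interaction 3.08 ± 0.39, adjusted p = 3.3e-05). MMP12, the macrophage elastase, was at 45.6, 31.9, 47.5 and 43.0 CPM with shPAX8-1 and at most 0.474 CPM with shPAX8-2 in OS-LM1, a construct difference of 7.27 ± 0.29 (edgeR adjusted p = 3.5e-09), and was at 0 in all 8 libraries of 786-M1A, so no interaction is given. WTAPP1, a pseudogene transcript that overlaps MMP1 and MMP3, had 3.94 ± 1.03 (adjusted p = 0.0107). It averaged 1.38 against 0.292 CPM in OS-LM1 and 0.0400 against 0.145 CPM in 786-M1A. Its value rests on few counts, and its reads may be shared with MMP1 and MMP3.

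The direction was not shared by the tested genes on the side of MMP10 at lower coordinates. Genes on the other side, beyond MMP13, were not looked at. BIRC3, an inhibitor of apoptosis induced by NF-kB, was higher with shPAX8-1 in both lines, by 2.26 in 786-M1A and 0.97 in OS-LM1, with an interaction of -1.28 ± 0.28 (adjusted p = 0.003). BIRC2 (-0.51), TMEM123 (-0.53) and MMP7 (-0.04) did not pass the test, with adjusted p of 0.103, 0.132 and 0.972.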
